A study of Rattus norvegicus with 12 samples.

Results

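The interleukins and their receptors were followed here in rat lung, as every gene whose symbol begins with Il and a number in the read count tables of the lung RNA sequencing. The rule found 69 genes among the 19687 genes listed in any table, and 57 of them were listed in all 3 tables. By role they were 28 ligands, 32 receptor chains, 6 decoys or antagonists and 3 other members. Of the 69, 50 had enough reads to be tested against Vehicle, and these were 16 ligands, 27 receptor chains, 5 decoys or antagonists and 2 others.

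The lungs came from 12 rats, each with its own library, all given monocrotaline (MCT, 60 mg/kg), a plant toxin that injures the pulmonary vasculature and brings on pulmonary hypertension. The methods describe male Sprague-Dawley rats, and the labels give an age of 9 weeks. The 3 rats of each group carried minipumps with AngII (1 mg/kg/day), the natural agonist of the angiotensin II type 1 receptor, with TRV023 (10 µg/kg/min), a peptide agonist of this receptor biased toward β-arrestin, with Losartan (10 mg/kg/day), its antagonist, or with PBS as Vehicle. No lung without MCT was sequenced among these 12, so all values describe differences between infusions within injured lungs, and the time of infusion is given in the methods for histology and hemodynamics but not for the sequenced lungs. Values per library are given in the order Ang2_922, Ang2_931 and Ang2_933 for AngII, Trv_917, Trv_918 and Trv_930 for TRV023, Los_925, Los_964 and Los_965 for Losartan, and Veh_923, Veh_924 and Veh_963 for Vehicle. The number is taken here as that of the rat, which the labels do not state.

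Interleukins are secreted proteins by which leukocytes and tissue cells signal to each other. Most act through receptors built from a chain that is particular to the ligand and a chain shared by several ligands, such as Il2rg for the common gamma chain family, Il6st for the interleukin-6 family and Il1rap for the interleukin-1 family. Some members counter the signal, either as decoy receptors that bind a ligand without signaling (Il1r2, Il13ra2), as soluble binding proteins (Il18bp, Il22ra2) or as receptor antagonists (Il1rn, Il36rn). Type 1 interleukins, such as interleukin-12 and interleukin-18, favor interferon-gamma production, type 2 interleukins, such as interleukin-4 and interleukin-33, favor eosinophil, mast cell and antibody responses, and type 17 interleukins, such as interleukin-17A and interleukin-23, favor neutrophil responses at epithelial surfaces. In lung, interleukin-33 is stored in the nuclei of structural cells, is released on injury, and acts through its receptor chain Il1rl1 on mast cells and lymphoid cells.

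The upstream sequences of Il33 and Il1rl1 are shown because this ligand and its receptor chain gave the smallest p among the members with AngII and with TRV023. RefSeq lists 2 starts for Il33 on chromosome 1, with the 250 upstream bases at chr1:237115323-237115572 and chr1:237134696-237134945, and 1 for Il1rl1 at chr9:50203388-50203637, all on the plus strand of GRCr8, a build other than that of the read count tables. Capitals mark TATAAA on either strand.
Il33, first start: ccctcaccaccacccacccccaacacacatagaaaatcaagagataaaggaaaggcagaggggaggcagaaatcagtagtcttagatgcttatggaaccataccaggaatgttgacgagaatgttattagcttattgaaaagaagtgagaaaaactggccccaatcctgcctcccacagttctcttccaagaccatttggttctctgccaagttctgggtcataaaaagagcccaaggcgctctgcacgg
Il33, second start: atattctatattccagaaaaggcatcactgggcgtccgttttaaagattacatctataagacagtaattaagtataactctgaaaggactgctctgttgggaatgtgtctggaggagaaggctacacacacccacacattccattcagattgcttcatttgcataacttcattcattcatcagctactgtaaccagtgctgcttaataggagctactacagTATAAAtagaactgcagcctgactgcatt
Il1rl1: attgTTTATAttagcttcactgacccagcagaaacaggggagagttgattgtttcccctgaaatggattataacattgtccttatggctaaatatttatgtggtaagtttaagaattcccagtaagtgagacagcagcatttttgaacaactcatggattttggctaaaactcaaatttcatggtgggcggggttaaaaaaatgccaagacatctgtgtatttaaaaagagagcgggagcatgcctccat
TATAAA began at -29 from the second Il33 start and at -246 from the Il1rl1 start, there on the opposite strand. It was in 12.9% of 33469 rat upstream windows of the same length, and in 12 of the 62 windows that matched a member. The motifs TGANTCA (AP-1) and TTCNNNGAA (STAT), searched on both strands, were in 6.34% and 7.67% of all windows and in none of the 3 sequences shown. The motifs were chosen after the values were seen, and a match is a description of the letters only.

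To place the members by level, FPKM (reads scaled to gene length and library total) was averaged over the libraries in which a gene was listed. Receptor chains were the more abundant class, with a median of 6.39 FPKM over 32 genes and 12 above 10 FPKM, against 1.75 FPKM over 28 ligands with 6 above 10 FPKM. The ligands of highest level were Il18 (70.3 FPKM), Il34 (47.7), Il33 (44.8), Il1b (26.1), Il17d (22.2) and Il15 (15.6). Interleukin-34 is the second ligand of the colony stimulating factor 1 receptor, and interleukin-15 sustains natural killer and memory T cells. The receptor chains of highest level were Il4r (86.3 FPKM), which binds interleukin-4 and forms the receptor for interleukin-13 together with Il13ra1, the shared chains Il2rg (80.7) and Il6st (70.4), Il17ra (49.0), the receptor of interleukin-17A, Il11ra1 (37.1) and Il10rb (36.0). The FPKM of 7 members used another length than the gene length given in the tables. For Il2rg and Il17d the deposited FPKM was 2.72 and 2.00 times the value that the listed length gives, so their ranks among genes depend on that length, whereas their differences between rats do not.

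**Figure D1:**
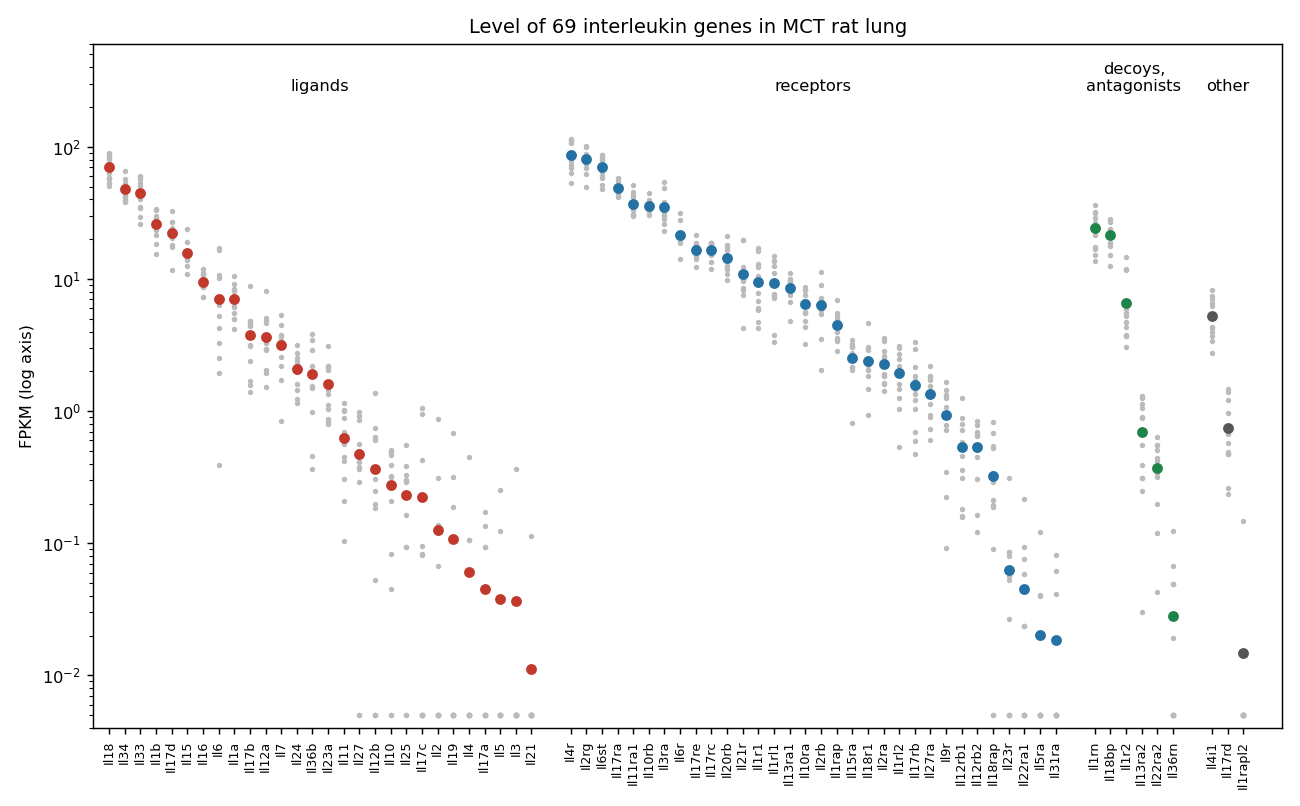
FPKM of the 69 members (y axis, log scale) by role, in order of level. Colored points are means over the libraries in which a gene was listed, grey points are single libraries, and values of 0 are drawn along the bottom. Receptor chains reach 86.3 FPKM (Il4r) and ligands 70.3 FPKM (Il18), and most ligands of lymphocytes (Il2, Il4, Il5, Il17a, Il21) lie below 1 FPKM.

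The hallmark ligands of the type 2 and type 17 groups were near the limit of detection. Il4 had 6 reads and Il5 had 3 reads over all libraries in which they were listed, Il17a had 11, Il21 had 1 and Il25, an epithelial type 2 ligand, had 55, at 16106337 to 20096877 reads per library. A count of 0 in a single library allows up to 0.186 RPM (reads scaled to library total) at the lowest depth, which covers counting error only. By contrast, the receptor chains Il4r, Il17ra, Il17rc and Il17re averaged 86.3, 49.0, 16.6 and 16.7 FPKM. In all, 19 members fell below the filter on low counts in the comparisons with Vehicle, among them Il2, Il3, Il10, Il12b, Il23r and Il5ra. A difference of these genes from Vehicle was not tested in the main comparisons at this depth. Il10, Il12b and Il27 passed the filter in the fit of all 12 libraries, in which the infusions were compared with each other. Il18rap, the second chain of the interleukin-18 receptor, had 2, 7 and 5 reads in AngII lungs, 3, 6 and 3 in TRV023 lungs, 9, 2 and 2 in Losartan lungs, and 0, 0 and 1 in Vehicle lungs. Every infused rat had more reads of Il18rap than any Vehicle rat, but a gene enters a table only if it was read in 1 of the first 2 rats of the drug group, which favors genes that are low in Vehicle. It was singled out after its values were seen. Il7r, Il13, Il9, Il22 and Il31 were not listed under these symbols in any table, so their levels are not known here. Of the ligands in the type groups, 4 of 7 were listed for type 2 and 4 of 6 for type 17.

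Among the 6 libraries of each comparison, edgeR's quasi-likelihood test called no member at a Benjamini-Hochberg adjusted p under 0.05, in any comparison. It called 2 of 15059 genes with AngII (0.0133%), 1 of 15193 with TRV023 (0.00658%) and 0 of 15156 with Losartan (0%). At an unadjusted p under 0.05, 6 of 50 members differed with AngII, beside 11.9% of all genes, with 4 higher (6.54% of all genes) and 2 lower (5.39%). With TRV023 4 of 50 members differed, beside 5.56% of all genes, with 1 higher (2.61%) and 3 lower (2.96%). With Losartan 2 of 50 differed, beside 1.65% of all genes, with 1 higher (0.686%) and 1 lower (0.963%). The shares of members, 12, 8 and 4%, thus stood close to the shares of all genes with AngII and a little above them with TRV023 and Losartan, on few genes. Leaving out 1 rat gave 10 members with AngII without Ang2_922, 7 with TRV023 without Trv_918 or Veh_963 and 2 without Veh_923, and 7 with Losartan without Los_925 and 1 without Veh_923 or Veh_924. The TMM-scaled counts of the 2 groups did not overlap for 12 members with AngII (18.6% of all genes), 6 with TRV023 (10.2%) and 3 with Losartan (5.77%). DESeq2 called 3 members with AngII (Il33, Il21r and Il1r1, with 1.24% of all genes called), 0 with TRV023 (0.672%) and 0 with Losartan (0.0327%). With 1 rat left out DESeq2 called 1 to 6 members with AngII (6 without Ang2_922, 1 without Ang2_931 or Veh_923), 0 to 1 with TRV023 and 0 to 2 with Losartan (2 without Los_925). The 3 comparisons share the Vehicle libraries. The labels name a separate animal for each library, so that the p-values rest on the spread between 3 rats a group.

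To relate these differences to the cells in each piece of lung, marker genes of other cell types were summed in FPKM. Fewer cells of a type and less RNA per cell cannot be told apart in these bulk samples. All 8 lung markers, Sftpc, Sftpb and Scgb1a1 among them, were read in every library. The sum of 6 fibroblast markers was 1246 to 1571 in AngII lungs, against 1712 to 1983 in Vehicle lungs, and did not overlap. FPKM values of AngII lungs run low, as given with Il17ra below. On the TMM-scaled counts 2 of the 6 markers were apart, both lower (18.6% of all genes apart in either direction). By edgeR 1 passed an unadjusted p of 0.05 (11.9% of all genes). The sum of 9 mast cell markers was 1069 to 1155 in TRV023 lungs, against 681 to 937 in Vehicle lungs, and did not overlap either, but it overlapped without Tpsb2, the most abundant of them (700 to 824, against 516 to 720). T and NK cell and B and plasma cell sums are given beside Il21r. Los_925 differed from Los_964 and Los_965 in mast cell markers (1248, against 446 and 524). The same held for T and NK cell markers (176, against 74.7 and 102). Los_964, Los_965 and Veh_963 form a series of higher animal numbers, and all other rats, Los_925 among them, have lower numbers. Veh_963 had 681 in mast cell markers, against 726 and 937 in Veh_923 and Veh_924. In T and NK cell markers it had 152, against 138 and 136. The part of the number series in the Losartan split was not tested.

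Il33 was the member with the smallest p with AngII (gene ENSRNOG00000016456, chromosome 1, 255386570 to 255397660 in the coordinates of the tables). Its FPKM was 35.1, 26.0 and 34.5 in AngII lungs, 50.4, 40.5 and 29.5 in TRV023 lungs, 57.5, 45.7 and 46.3 in Losartan lungs, and 60.1, 59.0 and 53.1 in Vehicle lungs. All AngII and all TRV023 values lay below the lowest Vehicle value, while the Losartan and Vehicle ranges overlapped. The log2 fold change over Vehicle was -0.72 with AngII (SE 0.14, edgeR unadjusted p = 0.000557, adjusted p = 0.295) and -0.51 with TRV023 (SE 0.19, adjusted p = 0.822), against -0.16 with Losartan (SE 0.13, adjusted p = 0.9999). With TRV023 the difference was -0.34 without Trv_930 and -0.73 without Trv_917. DESeq2 gave an adjusted p of 0.00328 with AngII, and it called Il33 in each of the 6 fits that left out 1 library, with adjusted p from 0.00145 to 0.0478. Between the drugs, Il33 was lower in AngII than in Losartan lungs (log2 -0.55, SE 0.18, edgeR adjusted p = 0.444 in the fit of all 12 libraries). Structural cells are the known source of this ligand, and beside the fibroblast sums above the sum of 7 endothelial markers was 803 to 1131 in AngII lungs and 787 to 1124 in Vehicle lungs. All 6 smooth muscle markers tested had a negative log2 fold change with each infusion. The medians were -0.81 with AngII, -0.76 with TRV023 and -0.37 with Losartan, and no marker passed an unadjusted p of 0.05. The sum of these markers was 649 to 1055 in AngII, 781 to 1288 in TRV023 and 811 to 1347 in Losartan lungs. Vehicle lungs had 723, 1069 and 2727, where Veh_963 stood apart. Of 6 mesothelial markers, 5 had a negative log2 fold change with AngII (median -0.40), 6 with TRV023 (median -1.08) and 6 with Losartan (median -0.41). Of these markers 0, 2 and 0 passed. The fibroblast medians were -0.40 with AngII, -0.25 with TRV023 and -0.47 with Losartan. The part of these cells in the Il33 difference was not tested.

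Il1r1, the signaling receptor of interleukin-1α and interleukin-1β, had 6.79, 4.23 and 5.84 FPKM in AngII lungs, 12.4, 7.78 and 10.5 in TRV023 lungs, 17.1, 6.07 and 4.73 in Losartan lungs, and 13.0, 16.2 and 9.63 in Vehicle lungs. The AngII values did not overlap with Vehicle, whereas the Losartan group held the highest value of all 12 rats in Los_925 and the second lowest in Los_965. The log2 fold change was -1.08 with AngII (SE 0.24, edgeR adjusted p = 0.295, DESeq2 adjusted p = 0.0135), -0.34 with TRV023 (SE 0.24) and -0.47 with Losartan (SE 0.42). The DESeq2 call with AngII was made in 2 of the 6 fits that left out 1 library, those without Ang2_922 or Veh_963. It was lost without any of the other 4 libraries, with adjusted p up to 0.148. In the same order of rats, the fibroblast sums were 1571, 1246 and 1360 with AngII and 1693, 1317 and 1724 with TRV023. They were 1716, 1124 and 1030 with Losartan and 1712, 1752 and 1983 with Vehicle. AngII and Losartan rats ranked alike in the sum and in Il1r1, whereas TRV023 and Vehicle rats did not. Trv_930 had the highest sum and Trv_917 the highest Il1r1 of the TRV023 rats. Veh_963 had the highest sum and the lowest Il1r1 of the Vehicle rats. The part of fibroblasts in the Il1r1 difference was not tested.

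Il21r, the receptor of interleukin-21 on B, T and natural killer cells, was the receptor chain with the smallest p. Its FPKM was 19.7, 19.6 and 12.2 in AngII lungs, 7.63, 8.56 and 9.96 in TRV023 lungs, 10.2, 4.29 and 8.27 in Losartan lungs, and 9.70, 10.5 and 9.97 in Vehicle lungs. All AngII values lay above all other 9 libraries. The log2 fold change was 0.90 over Vehicle (SE 0.19, edgeR adjusted p = 0.295, DESeq2 adjusted p = 0.0105), 1.12 over TRV023 (SE 0.25, edgeR adjusted p = 0.281) and 1.29 over Losartan (SE 0.25, edgeR adjusted p = 0.28). DESeq2 called it against Vehicle in 4 of the 6 fits that left out 1 library. The call was lost without Ang2_931 (adjusted p = 0.167) and without Veh_923 (adjusted p = 0.0876).

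Lymphocyte marker sums were set beside Il21r. In AngII lungs the T and NK cell sum was 183, 177 and 143 FPKM, against 138, 136 and 152 in Vehicle lungs, and the B and plasma cell sum was 77.4, 61.3 and 50.5, against 33.3, 27.5 and 57.6. The AngII and Vehicle ranges overlapped for both full sums. The T and NK cell sum was 111 to 162 in TRV023 and 74.7 to 176 in Losartan lungs. The B and plasma cell sum was 10.1 to 51.6 in TRV023 and 15.6 to 55.5 in Losartan lungs. Without Cd4, the most abundant T and NK cell marker, AngII lungs had 97.7 to 129 and Vehicle lungs 82.1 to 94.6, with no overlap. Without Mzb1, the most abundant B and plasma cell marker, the ranges still overlapped (29.3 to 65.5 in AngII, against 19.9 to 42.7 in Vehicle lungs). All 10 T and NK cell markers tested and all 6 B and plasma cell markers tested had a positive log2 fold change, with medians of 0.43 and 0.78, and 3 and 1 of them passed an unadjusted p of 0.05 (11.9% of all genes). Cd5 of the T cell list and Cd79a of the B cell list were at 0 in some libraries, and the other listed markers of both lists were read in every library. Gzmb of the T and NK cell list was not tested with AngII and had a lower mean there. It had 0.04, 0.29 and 0.24 FPKM in AngII lungs (mean 0.19), against 0.51, 0.35 and 0.27 in Vehicle lungs (mean 0.38). The share of lymphocytes in the Il21r difference was not tested.

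The other members past an unadjusted p of 0.05 with AngII differed by less. Il3ra, the receptor chain for interleukin-3, had 37.0, 53.8 and 48.9 FPKM in AngII lungs, against 32.2, 36.0 and 26.1 in Vehicle lungs (log2 0.71, SE 0.20, edgeR adjusted p = 0.338). TRV023 lungs with 29.8, 23.3 and 36.0 FPKM and Losartan lungs with 30.4, 28.4 and 38.1 FPKM stood near Vehicle. Il17ra had 47.5, 51.8 and 58.5 FPKM in AngII lungs, against 48.8, 42.4 and 47.3 in Vehicle lungs, which overlap (log2 0.33, SE 0.14, edgeR adjusted p = 0.414). Its groups were apart only on the TMM-scaled counts that edgeR uses. AngII FPKM values run low beside them, since scaling by library totals shifted the AngII log2 fold changes of all genes to a median of -0.16.

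Il4i1, which is named after interleukin-4 but encodes an amino acid oxidase of leukocytes, was the only member past an unadjusted p of 0.05 in all 3 comparisons. Its FPKM was 7.04, 7.37 and 8.20 in AngII lungs, 3.37, 3.95 and 4.36 in TRV023 lungs, 4.24, 2.73 and 3.69 in Losartan lungs, and 6.19, 6.55 and 5.25 in Vehicle lungs. AngII values were thus all above Vehicle, and TRV023 and Losartan values were all below it. The log2 fold change over Vehicle was 0.47 with AngII (SE 0.20), -0.62 with TRV023 (SE 0.21) and -0.71 with Losartan (SE 0.24), with edgeR adjusted p of 0.416, 0.74 and 0.9999. AngII and TRV023 lungs differed by 1.10 (SE 0.21, edgeR adjusted p = 0.262), and AngII and Losartan lungs by 1.19 (SE 0.21, edgeR adjusted p = 0.28).

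With TRV023, the member with the smallest p was Il1rl1, the receptor chain for interleukin-33. Its FPKM was 12.6, 14.9 and 11.1 in TRV023 lungs, against 7.47, 9.06 and 7.73 in Vehicle lungs, with no overlap. AngII lungs had 13.6, 7.51 and 7.21 FPKM and Losartan lungs 13.8, 3.35 and 3.77, so that both groups held 1 rat as high as the TRV023 rats. The log2 fold change was 0.67 with TRV023 (SE 0.16, edgeR unadjusted p = 0.00321, adjusted p = 0.554, DESeq2 adjusted p = 0.0924), 0.35 with AngII (SE 0.25) and -0.22 with Losartan (SE 0.47). In the fit of all 12 libraries, in which the unlike Losartan and AngII rats enter the spread, its unadjusted p with TRV023 was 0.123.

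Mast cells carry this receptor, and their marker sum differed between the same rats. It was 1260, 1044 and 882 FPKM in AngII rats, 1069, 1118 and 1155 in TRV023 rats, 1248, 446 and 524 in Losartan rats, and 726, 937 and 681 in Vehicle rats. Ang2_922 and Los_925, both high in Il1rl1, had the 2 highest sums, Los_964 and Los_965, the lowest in Il1rl1, had the 2 lowest, and Ang2_931 had a high sum with 7.51 FPKM of Il1rl1. Of 8 mast cell markers tested, 5 passed an unadjusted p of 0.05 with AngII (11.9% of all genes), all higher, and the 8 had a median log2 difference of 0.50, while Il1rl1 did not pass with AngII (unadjusted p = 0.197). With TRV023 3 passed (5.56% of all genes), all higher, and the median of the 8 was 0.27. Among those 3 were the tryptases Tpsab1 (log2 0.89, SE 0.16) and Tpsb2 (log2 0.86, SE 0.17), both called by DESeq2. Mcpt1 was the only listed mast cell marker at 0 in most libraries. The part of mast cells in the Il1rl1 difference was not tested.

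Il2rg, the common gamma chain used by the receptors of interleukins 2, 4, 7, 9, 15 and 21, had 61.9, 69.3 and 73.7 FPKM in TRV023 lungs, against 88.6, 101 and 84.4 in Vehicle lungs (log2 -0.42, SE 0.12, edgeR adjusted p = 0.656). These ranges did not overlap. AngII lungs had 85.2, 85.2 and 86.1 FPKM, and Losartan lungs ranged from 49.9 to 100.3 FPKM. Il33 and Il4i1 were the other members lower with TRV023, with the values given above.

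**Figure D2:**
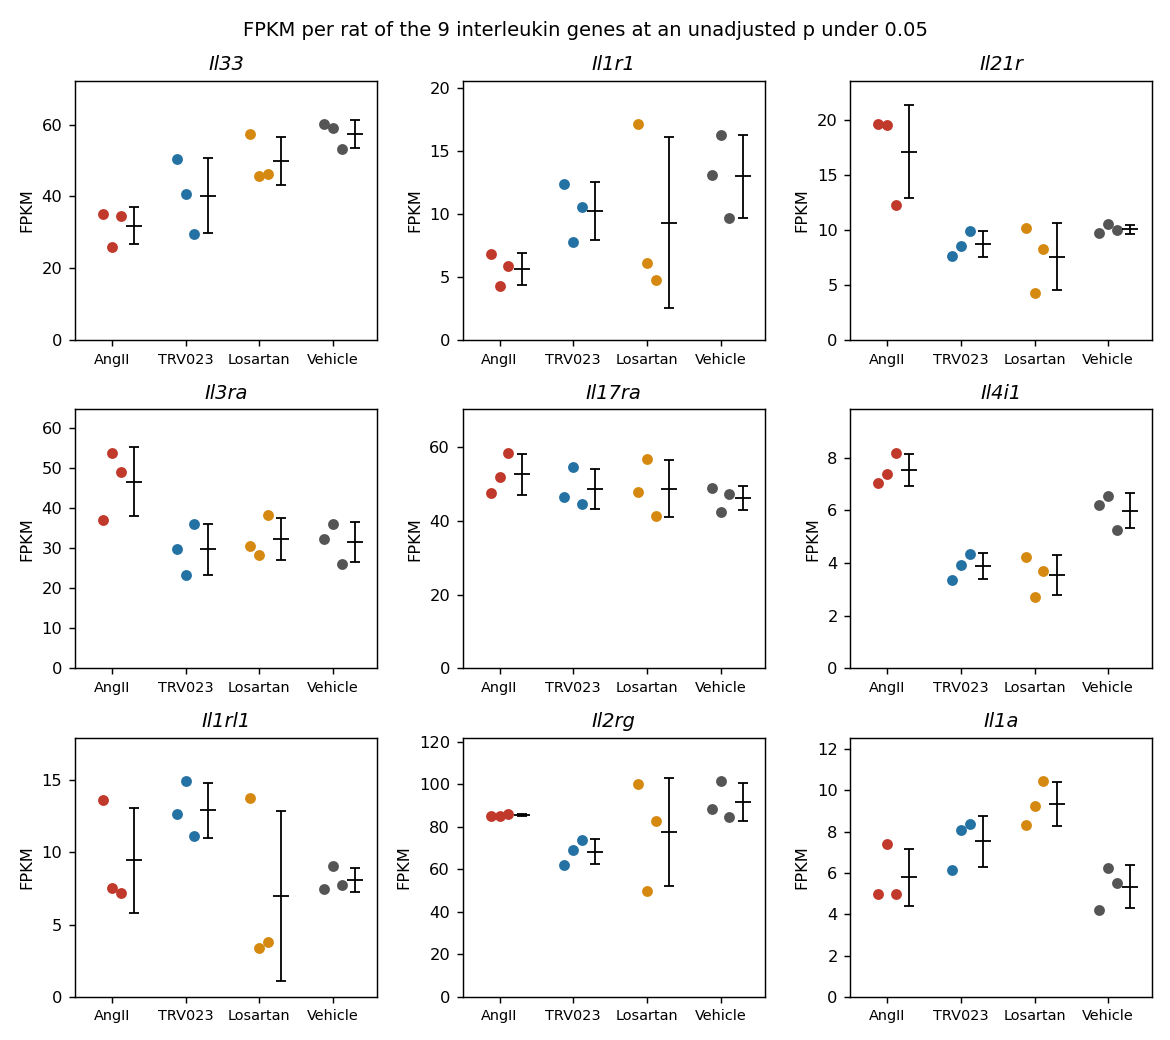
FPKM per rat (points, y axis from 0) for AngII, TRV023, Losartan and Vehicle lungs, with the mean and SD of 3 rats beside each group. Il33 and Il1r1 are low in all AngII rats, Il21r is high in all AngII rats (12.2 to 19.7 FPKM), Il1rl1 is high in all TRV023 rats (11.1 to 14.9 FPKM), and Los_925, the first point of its group, lies far from Los_964 and Los_965 in Il1r1 and Il1rl1.

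With Losartan, Il1a, which encodes interleukin-1α, an alarmin that is active before cleavage, was higher than with Vehicle. Its FPKM was 8.32, 9.23 and 10.5 in Losartan lungs, against 4.21, 6.26 and 5.50 in Vehicle lungs, with no overlap (log2 0.87, SE 0.24, edgeR unadjusted p = 0.00656, adjusted p = 0.9999). TRV023 lungs had 6.12, 8.06 and 8.40 FPKM and AngII lungs 5.003, 7.40 and 4.995, which overlap with Vehicle in FPKM. The other Losartan difference at this threshold was Il4i1.

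In the interleukin-1 family, 13 members were tested. Of the 5 receptor chains tested, 4 had a negative log2 fold change with AngII. Beside Il1r1, the log2 fold change was -0.41 for Il1rap, the shared signaling chain, -0.71 for Il1rl2, the interleukin-36 receptor, and -0.49 for Il18r1, the interleukin-18 receptor. None of these 3 passed an unadjusted p of 0.05. Il1r2, Il1r1, Il1rl2, Il1rl1, Il18r1 and Il18rap lie in this order on chromosome 9, between 46526298 and 46919233 in the coordinates of the tables. Within this cluster Il1r1 and Il1rl1, whose starts are 46681412 and 46818261, had log2 fold changes of -1.08 and 0.35 with AngII and of -0.34 and 0.67 with TRV023. Among the ligands, Il1b, the inflammasome product of myeloid cells, had 21.6, 34.1 and 26.0 FPKM in AngII lungs, 33.1, 30.2 and 25.9 in TRV023 lungs, 23.5, 29.1 and 18.5 in Losartan lungs, and 27.3, 29.0 and 15.4 in Vehicle lungs. Il18 had 57.7, 86.7 and 88.1 FPKM in AngII lungs, 56.8, 83.5 and 58.1 in TRV023 lungs, 75.8, 63.3 and 50.2 in Losartan lungs, and 89.98, 52.8 and 80.4 in Vehicle lungs. The groups overlapped for both ligands, with absolute log2 fold changes of at most 0.33 for Il1b and 0.20 for Il18.

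The decoys and antagonists held no member past an unadjusted p of 0.05. Il1rn, the interleukin-1 receptor antagonist, averaged 26.5 ± 5.4 FPKM in AngII lungs, 19.3 ± 5.4 in TRV023 lungs, 26.4 ± 9.6 in Losartan lungs and 24.8 ± 9.7 in Vehicle lungs (SD, n = 3 each). Il18bp, which neutralizes interleukin-18, averaged 25.1 ± 5.5 FPKM in AngII lungs, 22.2 ± 4.6 in TRV023 lungs, 18.4 ± 5.7 in Losartan lungs and 20.2 ± 4.4 in Vehicle lungs (SD, n = 3 each). Il1r2, the decoy receptor for interleukin-1, had 5.54, 5.93 and 3.75 FPKM in AngII lungs, 11.6, 3.04 and 11.9 in TRV023 lungs, 3.71, 14.8 and 3.73 in Losartan lungs, and 4.73, 5.27 and 4.34 in Vehicle lungs. Trv_917, Trv_930 and Los_964 stood high, and every other rat lay between 3.04 and 5.93 FPKM. Neutrophils carry this decoy, and the sum of 12 neutrophil markers was 1919 to 3096 in AngII lungs, 1159 to 1865 in TRV023 lungs, 457 to 2950 in Losartan lungs and 574 to 2653 in Vehicle lungs. Lcn2, which lung epithelium also makes, carried most of this sum in every rat. Without it the sum was 204 to 457 in AngII lungs, 408 to 759 in TRV023 lungs, 95.7 to 722 in Losartan lungs and 154 to 335 in Vehicle lungs, so that TRV023 lay above Vehicle with no overlap. Of 11 such markers tested with TRV023, 10 had a positive log2 fold change and 6 passed an unadjusted p of 0.05 (5.56% of all genes), among them Camp, a granule protein (log2 1.69, SE 0.26). With AngII and with Losartan 10 of 11 were positive as well, with medians of 0.61 and 0.78, against 1.16 with TRV023. Of the 11, 1 passed with AngII (11.9% of all genes) and 0 with Losartan (1.65%). The part of neutrophils in the Il1r2 values was not tested. Il13ra2 and Il22ra2 had log2 fold changes of -1.16 (SE 0.61) and -1.26 (SE 0.55) with TRV023, at mean levels of 0.70 and 0.37 FPKM over all rats. Il36rn was below the filter.

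**Figure D3:**
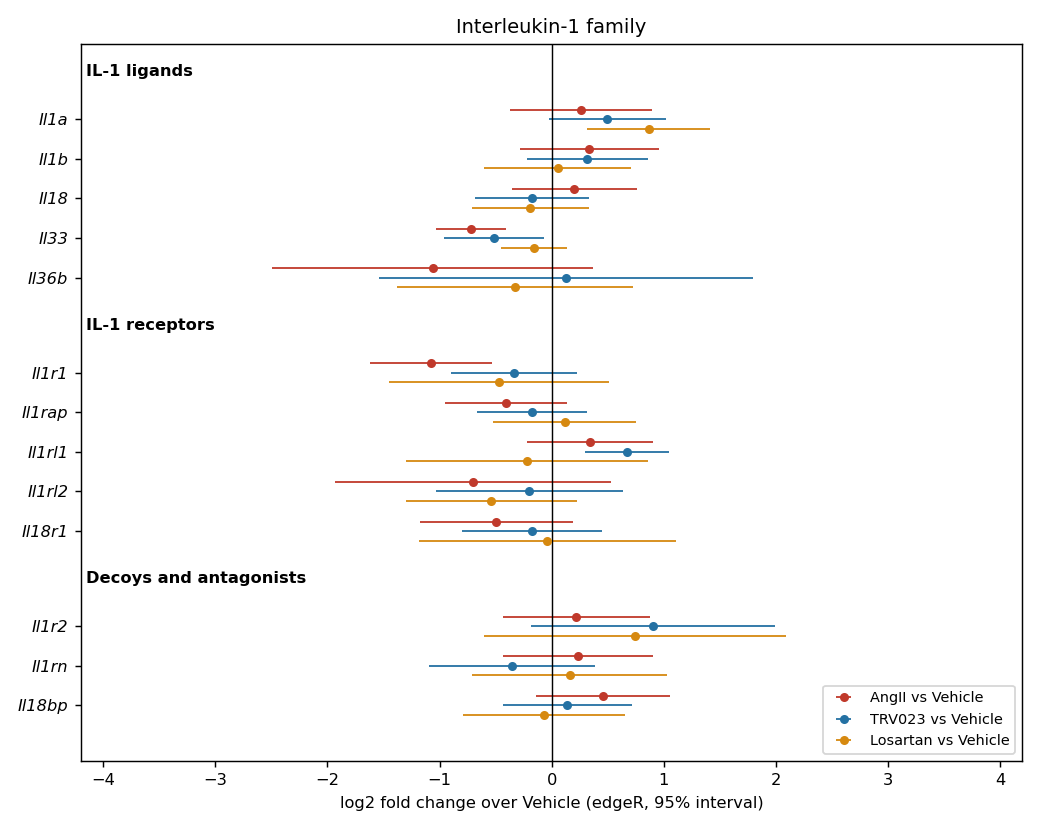
log2 fold change over Vehicle (x axis, points, with 95% intervals from edgeR) of the 13 tested interleukin-1 family members, for AngII, TRV023 and Losartan. The AngII intervals of Il33 and Il1r1 lie below 0, the TRV023 interval of Il1rl1 and the Losartan interval of Il1a lie above 0, and most others cross 0.

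Ligands and receptor chains were then set side by side. With AngII, the median log2 fold change was 0.17 over 16 ligands and 0.14 over 27 receptor chains, beside -0.02 over all genes tested. With TRV023 the medians were 0.14 and -0.03, and with Losartan -0.15 and -0.13, beside -0.00 and 0.01 over all genes. Under the alternatives below, the receptor median with TRV023 ran between -0.10 and 0.04 and that with Losartan between -0.27 and 0.02. In each comparison the 2 classes thus differed by less than 0.2, while the within-group SD of the mean score over the ligands was 0.24 and that over the receptor chains 0.19. At an unadjusted p under 0.05, 1 of 16 ligands (Il33) and 4 of 27 receptor chains (Il21r, Il1r1, Il3ra and Il17ra) differed with AngII, with 11.9% of all genes past this threshold.

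By type, 8 members of the type 1 group were tested, 6 of the type 2 group and 5 of the type 17 group. With AngII, all 5 type 17 members tested had a positive log2 fold change, with a median of 0.33, beside 7136 of 15059 genes with a positive value and a median of -0.02. Il21r and Il17ra passed an unadjusted p of 0.05, as did 11.9% of all genes. The 5 were Il23a, Il17ra, Il17rc, Il17re and Il21r. Il21r also belongs to the common gamma chain family and serves follicular helper T cells and B cells. Il23a, the interleukin-23 subunit p19, had 2.18, 2.04 and 3.09 FPKM in AngII lungs, against 2.21, 1.04 and 0.87 in Vehicle lungs (log2 0.96, SE 0.47, edgeR adjusted p = 0.459). TRV023 lungs had 2.18, 1.45 and 1.35 FPKM and Losartan lungs 1.11, 0.79 and 0.83. The type 17 median with AngII was 0.18 without Veh_963 and 0.44 without Ang2_922. It was 0.07 with TRV023 and 0.05 with Losartan. The mean type 17 score per rat, on log2 values centered over the 12 rats, was 0.32, 0.43 and 0.48 in AngII rats, -0.03, -0.19 and 0.03 in TRV023 rats, -0.16, -0.29 and -0.24 in Losartan rats, and 0.10, -0.10 and -0.34 in Vehicle rats. The AngII rats lay above all others in this score.

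In the type 2 group, the ligand Il33 lay below and its receptor chain Il1rl1 above Vehicle with TRV023, as given above. With AngII only Il33 was apart from Vehicle, while Il1rl1 overlapped it and was high in Ang2_922 alone. Il4r had a log2 fold change of 0.26 with AngII (SE 0.21), 0.19 with TRV023 (SE 0.23) and 0.05 with Losartan (SE 0.29), and Il17rb, the receptor for interleukin-25, 0.77 with AngII (SE 0.43), 0.13 with TRV023 (SE 0.59) and -0.29 with Losartan (SE 0.52). The group median was 0.19 with AngII (0.02 without Ang2_922), 0.01 with TRV023 and -0.19 with Losartan. The mean type 2 score was 0.32 in Los_925, against -0.67 and -0.76 in Los_964 and Los_965, and -0.22 to 0.37 in all other rats. Without Los_925 the type 2 median with Losartan was -0.66.

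In the type 1 group, no member passed an unadjusted p of 0.05 in any comparison with Vehicle. The median was -0.26 with AngII, 0.02 with TRV023 and -0.06 with Losartan. With AngII the 3 ligands tested, Il12a, Il15 and Il18, lay between -0.03 and 0.20, and the receptor chains had a median of -0.54. Il12rb1, shared by the receptors of interleukin-12 and interleukin-23, had 0.46, 0.31 and 0.18 FPKM in AngII lungs, against 1.27, 0.73 and 0.58 in Vehicle lungs (log2 -1.30, SE 0.58, edgeR adjusted p = 0.424). When only genes with 10 or more counts in each library were kept, which removes the low receptor chains, the type 1 median with AngII was 0.19, so its direction depends on these low genes.

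**Figure D4:**
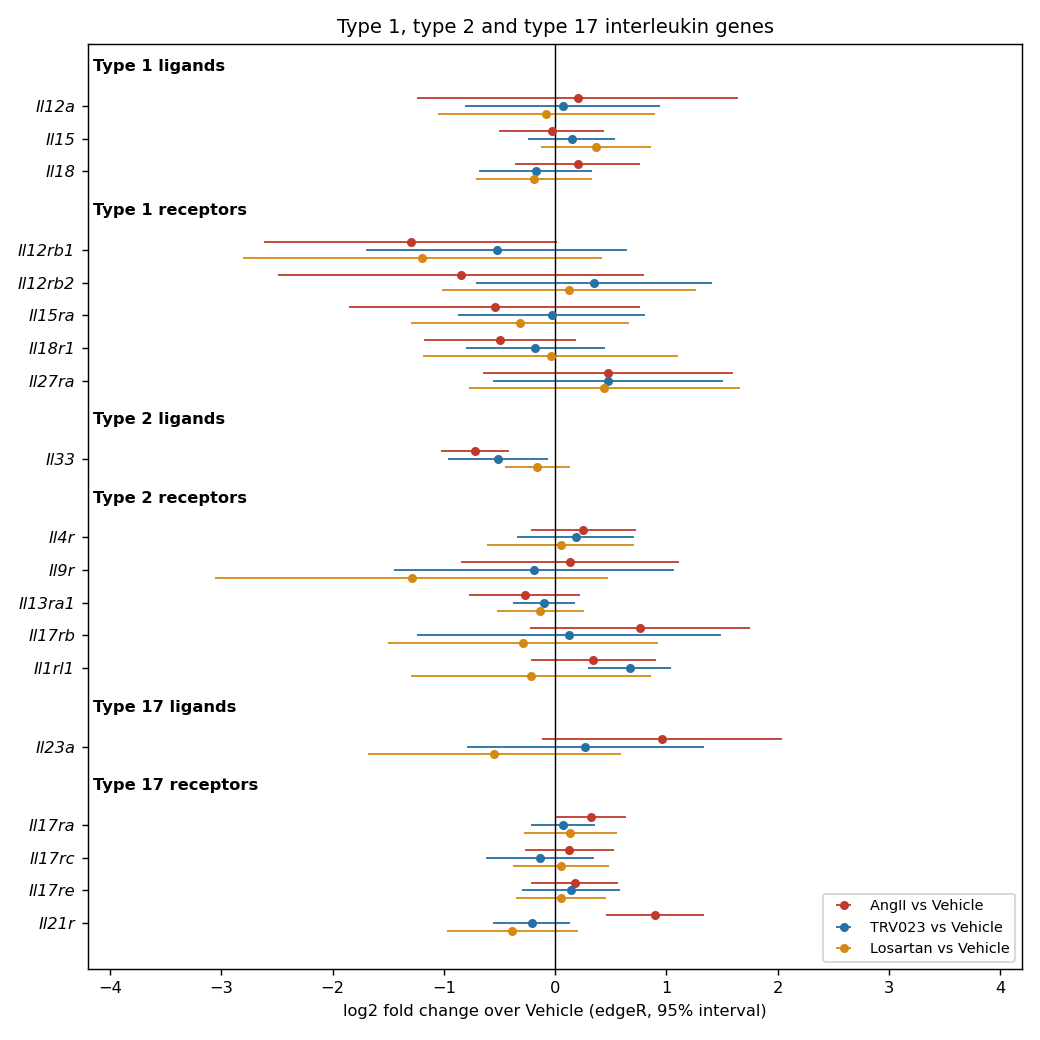
log2 fold change over Vehicle (x axis, points, with 95% intervals from edgeR) of the tested type 1, type 2 and type 17 ligands and receptor chains, for AngII, TRV023 and Losartan. All 5 type 17 members have AngII points above 0, from 0.13 to 0.96, Il33 lies below 0 with all 3 infusions, and the low receptor chains of the type 1 group have wide intervals.

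Il6, the acute phase interleukin, varied more between rats of a group than between groups. Its FPKM was 2.50, 10.8 and 3.27 in AngII lungs, 16.5, 5.29 and 4.28 in TRV023 lungs, 10.2, 6.46 and 0.39 in Losartan lungs, and 6.38, 17.3 and 1.95 in Vehicle lungs. Its signaling chain Il6st was steadier, at 60.6 ± 3.2 FPKM in AngII lungs, 72.3 ± 18.5 in TRV023 lungs, 68.9 ± 18.8 in Losartan lungs and 80.0 ± 7.6 in Vehicle lungs (SD, n = 3 each), with AngII at a log2 fold change of -0.26 (SE 0.14, edgeR adjusted p = 0.468). Il34, Il17d, Il15, Il11ra1 and Il10rb, all above 10 FPKM, had absolute log2 fold changes of at most 0.36 in the 3 comparisons, and none passed an unadjusted p of 0.05.

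Of 43 genes that act beside the members, such as the JAK kinases, STAT factors and SOCS inhibitors that carry and limit the signal, 42 were tested. At an unadjusted p under 0.05, 4 were higher and 2 lower with AngII, 2 were higher and 0 lower with TRV023, and 0 differed with Losartan. These are 14.3, 4.76 and 0% of the genes tested, beside 11.9, 5.56 and 1.65% of all genes. Crlf2, the receptor chain for thymic stromal lymphopoietin, had 58.5, 63.3 and 59.6 FPKM in AngII lungs, against 43.2, 41.0 and 37.7 in Vehicle lungs (log2 0.71, SE 0.12, edgeR adjusted p = 0.263, DESeq2 adjusted p = 0.00107). Ebi3, the shared subunit of interleukin-27 and interleukin-35, had 7.01, 7.18 and 6.17 FPKM in AngII lungs and 6.96, 5.54 and 5.09 in TRV023 lungs, against 3.41, 2.97 and 4.18 in Vehicle lungs. The Ebi3 ranges of both agonists lay above Vehicle, with log2 fold changes of 1.08 with AngII (SE 0.28, edgeR adjusted p = 0.325, DESeq2 adjusted p = 0.0372) and 0.73 with TRV023 (SE 0.28, edgeR adjusted p = 0.822). Lifr, the receptor for leukemia inhibitory factor, was lower with AngII (log2 -1.07, SE 0.35), and Socs1, an inhibitor of JAK kinases, was higher (log2 0.70, SE 0.24), at edgeR adjusted p of 0.372 each. Irak3, an inhibitor of interleukin-1 receptor signaling, was higher with TRV023 (log2 0.36, SE 0.15, edgeR adjusted p = 0.849).

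The infusions were also compared with each other in a single edgeR fit of all 12 libraries, in which 53 members were tested and none was called. AngII and TRV023 lungs differed at an unadjusted p under 0.05 in 4 members, all higher with AngII (Il4i1, Il21r, Il3ra and Il2rg), with 10.9% of all genes and 5.43% in this direction past this threshold, and in 7 without Ang2_922 or Trv_930. AngII and Losartan lungs differed in 7, of which Il4i1, Il21r, Il23a, Il24 and Il3ra were higher (4.69% of all genes) and Il33 and Il1a lower (4.49%) with AngII, with 9.18% of all genes in either direction, and in 14 without Los_925. TRV023 and Losartan lungs differed in none, with 4.55% of all genes, but in 7 without Los_925, 3 without Los_964 and 1 without Trv_917, Trv_918 or Los_965.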

How the data were processed

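RNA from MCT rat lung (3 rats a group, 12 libraries) was sequenced by a company and aligned to the rat genome. Aligner, counting tool, strand setting and build were not given in the sources used here, so coordinates follow the tables. Per gene, the deposited read counts are whole, and the authors computed the deposited FPKM from them by gene length and library total. Also deposited were a scaled signal and the authors' own comparisons (log2 fold change, p-value), none of which was used. Each deposited table leaves out genes at 0 in the first 2 libraries of its drug group, so an unlisted member had 0 reads in 2 rats and an unknown count in the third.

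Counts of drug and Vehicle libraries were tested in edgeR 4.0.16 under R 4.3.3 (filterByExpr, TMM, glmQLFit and glmQLFTest) with the 6 libraries of a table, fitted on all genes with Benjamini-Hochberg adjustment, and drugs were compared with each other in 1 fit of 12 libraries over 15662 of the 16957 genes in all tables. SE and 95% intervals came from the moderated test, and scripts were tested on simulated counts. Levels are FPKM. Library depth was 16106337 to 20096877 reads. Symbols were matched to RefSeq upstream windows (GRCr8) for 55 of 69 members. Without strand, Il11ra1 (overlapping Ccl27), Il17c (Mvd) and Il27 (Apobr) cannot be told from their antisense genes.

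Members named with values were those at an unadjusted p under 0.05 against Vehicle, the 6 ligands and 6 receptors of highest level, all decoys and antagonists, and members called by edgeR or DESeq2. Among signaling genes and markers they were those at an unadjusted p under 0.05, up to 4 per comparison. Il6, Il23a, Il12rb1, Il17rb, Il1rap, Il1rl2, Il18r1, Il18rap and the low ligands were named after their values were seen. Members and lists were chosen with earlier results of these data known. Alternatives were DESeq2 1.42.0, limma 3.58.1 (voom, or log2(FPKM + 1) and log2(FPKM + 0.1) at a mean FPKM of at least 1), RLE, library totals, no filter, at least 10 counts in every library, 12 libraries in 1 fit, the animal number series as a covariate (Losartan), and each library left out. Chosen after seeing the data were DESeq2 with each library left out, removal of the gene length trend (lowess, span 0.3), fits of the pair alone, and marker sums without the most abundant marker. Tables were read with data.table version 1.17.8, and figures drawn with matplotlib 3.10.9 in Python 3.11.15.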

Additional observations from a re-analysis of the deposited data

How the results depend on the processing

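No paired analysis was possible because the groups share no replicate numbers. With DESeq2 3 members were called with AngII, against 0 with edgeR, and leaving out 1 library moved this count between 1 and 6 with AngII, 0 and 1 with TRV023 and 0 and 2 with Losartan. The edgeR count of adjusted calls was 0 in every alternative run with edgeR or limma, also with each library left out. The median of the type 17 members with AngII was 0.18 with limma on log2(FPKM + 1), 0.18 on log2(FPKM + 0.1) and 0.19 with library totals, and 0.18 to 0.44 with a library left out, lowest without Veh_963. With TRV023 it was 0.21 with DESeq2 and 0.21 with no filter, and with Losartan it ran from -0.10 to 0.13 with a library left out. The type 1 median with AngII was 0.19 with at least 10 counts in every library. The type 2 median with Losartan ran from -0.66, without Los_925, to -0.031. The count of members at an unadjusted p under 0.05 was 5 to 10 with AngII (10 without Ang2_922), 2 to 7 with TRV023 (7 without Trv_918 or Veh_963, 2 without Veh_923) and 1 to 7 with Losartan (7 without Los_925, 1 without Veh_923 or Veh_924). It was 4 to 7 for AngII against TRV023, 0 to 7 for TRV023 against Losartan and, with a library left out, 8 to 14 for AngII against Losartan (14 without Los_925), and 1 for TRV023 against Losartan in the fit of the pair alone. The cause of these shifts was not tested. The 9 members at an unadjusted p under 0.05 kept their sign in those comparisons with Vehicle under all alternatives run. At 3 rats a group, no single gene can reach an exact permutation p below 0.1.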
